A study of Homo sapiens with 12 samples.

Results

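The nuclear-encoded subunits of oxidative phosphorylation (OXPHOS) were described across 12 RNA sequencing libraries made from HaCaT, a human keratinocyte line that grows without limit in culture. A gene was taken as a member when its symbol in the count table starts with NDUFA, NDUFB, NDUFC, NDUFS, NDUFV, UQCR, ATP5, COX4, COX5, COX6, COX7 or COX8, or is SDHA, SDHB, SDHC or SDHD. Assembly factors whose symbols start with NDUFAF, symbols with a hyphen and pseudogenes were left out. The rule found 85 members among 22545 genes: 37 of complex I, 4 of complex II, 9 of complex III, 16 of complex IV and 19 of complex V. CYC1, the cytochrome c1 subunit of complex III, falls outside these symbols and was counted with the electron carriers.

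The libraries fall into 4 groups of 3: cells given M5 and lefamulin, cells given M5 and retapamulin, cells given M5 alone, and untreated cells. All 12 are labelled with the genotype WT, and the untreated libraries are also titled WT. M5 is a usual name in skin research for a mixture of proinflammatory cytokines applied to cultured keratinocytes. The labels give neither its makeup nor any dose, time or solvent, so whether the doses of the compounds were matched is unknown. Lefamulin and retapamulin are pleuromutilin antibiotics, which bind the bacterial ribosome; they share a tricyclic core and differ in the side chain. The series title names pleuromutilins, psoriasis, hnRNP-U and TNF-α. HaCaT is 1 line, nothing says that the replicates were separate cultures, and p-values may then measure technical spread only.

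Oxidative phosphorylation takes place at the inner mitochondrial membrane. Complexes I to IV pass electrons from NADH and succinate to oxygen, and complexes I, III and IV pump protons as they do so; complex V, the ATP synthase, makes ATP as the protons flow back. Most subunits are encoded in the nucleus and imported, while mitochondrial DNA encodes some subunits of complexes I, IV and V, cytochrome b of complex III, and none of complex II. In the epidermis, basal keratinocytes hold active mitochondria, which are lost as the cells differentiate and cornify. Nuclear respiratory factor 1 (NRF1), the ETS factor GABPA (also called NRF2, and not the stress factor of that name) and YY1 are known from human and rodent cells to bind promoters of many of these genes.

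Promoter sequences are shown for 6 members on which the results below turn: in each complex the member with the most negative mean of its fold changes in both compound groups, and the member that rose most, chosen after their values were seen among members with 1 promoter in the table. The sequences are from RefSeq (build GRCh38.p14), from 250 bases before to 50 bases after the gene's start, written 5′ to 3′ on the gene's strand. Capitals mark matches to CGCATGCG (the NRF1 motif, its own reverse complement), CCGGAAG (the ETS motif of GABPA) or AAGATGGCG (the YY1 motif), searched on both strands, so that an ETS match may read CTTCCGG. NDUFV1 is the flavoprotein at which complex I takes electrons from NADH, and its promoter is chr11:67606686-67606985 on the plus strand. SDHD, a membrane anchor of complex II, has chr11:112086623-112086922 on the plus strand. UQCR10, a small subunit of complex III, has chr22:29767119-29767418 on the plus strand. COX5B, a subunit of complex IV, has chr2:97645812-97646111 on the plus strand. ATP5MC1, one of the genes for subunit c of complex V, has chr17:48892537-48892836 on the plus strand. ATP5MK, a small membrane subunit of complex V, has chr10:103396426-103396725 on the minus strand.
NDUFV1: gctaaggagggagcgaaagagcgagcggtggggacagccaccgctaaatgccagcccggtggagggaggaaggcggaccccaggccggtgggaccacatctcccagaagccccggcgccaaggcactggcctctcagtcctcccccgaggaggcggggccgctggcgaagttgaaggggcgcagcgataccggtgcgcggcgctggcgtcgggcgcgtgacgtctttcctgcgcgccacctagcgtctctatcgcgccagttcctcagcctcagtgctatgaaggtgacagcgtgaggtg
SDHD: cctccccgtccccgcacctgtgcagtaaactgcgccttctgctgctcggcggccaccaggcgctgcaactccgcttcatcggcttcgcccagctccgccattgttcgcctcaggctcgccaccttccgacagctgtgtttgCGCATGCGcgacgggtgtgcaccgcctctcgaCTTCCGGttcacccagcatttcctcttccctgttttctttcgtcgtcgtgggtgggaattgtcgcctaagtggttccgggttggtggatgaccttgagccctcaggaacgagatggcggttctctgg
UQCR10: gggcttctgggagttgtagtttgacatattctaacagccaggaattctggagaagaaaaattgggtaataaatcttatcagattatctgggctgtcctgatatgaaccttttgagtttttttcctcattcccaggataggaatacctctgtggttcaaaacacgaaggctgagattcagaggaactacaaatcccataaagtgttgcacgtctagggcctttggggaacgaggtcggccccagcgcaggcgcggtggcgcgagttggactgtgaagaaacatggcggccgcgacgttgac
COX5B: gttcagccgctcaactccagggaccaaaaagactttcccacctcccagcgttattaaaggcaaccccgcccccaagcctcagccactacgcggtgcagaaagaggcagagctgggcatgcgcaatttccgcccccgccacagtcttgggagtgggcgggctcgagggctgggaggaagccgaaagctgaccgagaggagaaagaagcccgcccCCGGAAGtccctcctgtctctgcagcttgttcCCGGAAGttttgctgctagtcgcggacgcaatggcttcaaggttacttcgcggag
ATP5MC1: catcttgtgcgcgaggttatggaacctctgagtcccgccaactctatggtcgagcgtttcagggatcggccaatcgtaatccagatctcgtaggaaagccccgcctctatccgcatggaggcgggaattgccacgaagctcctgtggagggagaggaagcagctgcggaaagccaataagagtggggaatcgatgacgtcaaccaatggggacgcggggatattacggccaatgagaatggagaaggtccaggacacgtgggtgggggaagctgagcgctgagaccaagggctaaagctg
ATP5MK: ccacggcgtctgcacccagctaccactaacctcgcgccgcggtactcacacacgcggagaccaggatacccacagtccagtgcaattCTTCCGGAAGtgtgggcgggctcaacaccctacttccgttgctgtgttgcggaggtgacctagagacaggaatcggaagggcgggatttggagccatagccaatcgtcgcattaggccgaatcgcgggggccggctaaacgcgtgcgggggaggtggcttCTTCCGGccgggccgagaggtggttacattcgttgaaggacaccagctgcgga
SDHD, COX5B, NDUFV1, UQCR10 and ATP5MC1 fell with both compounds, and ATP5MK rose. Of the 6 windows, that of SDHD held 1 NRF1 and 1 ETS match, that of COX5B 2 ETS matches and that of ATP5MK 3 ETS matches, of which 2 overlap on opposite strands. Those of NDUFV1, UQCR10 and ATP5MC1 held none of these letters.

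The promoter table held 67 of the 85 members. Entries not in it included those of ATP5F1B, ATP5F1D, ATP5MC3, ATP5MF, ATP5MGL, COX4I2, COX6C, COX7A1, NDUFA4, NDUFA4L2, NDUFB5, NDUFB9, NDUFC2, NDUFS5, SDHC, UQCRB and UQCRHL. The NRF1 letters stood in the promoters of 11 of 67 members (16.4%), against 2.46% of all 27305 genes in the table. The ETS letters stood in 21 members (31.3%), against 12.2% of all genes. The YY1 letters stood in 9 members (13.4%), against 2.14% of all genes. At least 1 of the 3 motifs stood in 34 members (50.7%), against 15.5% of all genes. Among them, ATP5PF, the F6 subunit of the ATP synthase stalk, held all 3. A match is a description of the letters and not a binding site, and no match says only that these letters are absent from the window. The comparison set of 27305 genes was not limited to the 14207 genes tested here, so it may hold genes silent in these cells.

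Libraries held 35110519 to 37520999 counts. A library's level of a gene is given in CPM, its count scaled to a common library size after TMM, a scaling that adjusts for differences in composition; the scaling factors were 0.975 to 0.982 for lefamulin, 0.915 to 0.931 for retapamulin, 1.00 to 1.02 for M5 and 1.09 to 1.11 for untreated libraries. Fold changes are log2 values from edgeR's quasi-likelihood test, with 95% intervals in brackets. A gene is called when its Benjamini-Hochberg adjusted p over the 14207 genes tested is under 0.05. All 10 keratinocyte markers were tested, with KRT5 at a mean of 790.0 CPM and KRT14, the usual partner of KRT5 in basal cells, at only 3.37 CPM; their summed level was 4370 to 4450 CPM in lefamulin, 4871 to 4914 CPM in retapamulin, 3553 to 3672 CPM in M5 and 3976 to 4048 CPM in untreated libraries. Against M5, 4 of the 10 rose and 6 fell with lefamulin (median -0.23), and 5 rose and 5 fell with retapamulin (median 0.03). Of 16 markers of other cell types, 7 passed the filter. The endothelial markers summed to 118 to 123 CPM in lefamulin, 99.8 to 115 CPM in retapamulin, 117 to 122 CPM in M5 and 14.6 to 16.7 CPM in untreated libraries, nearly all CDH5. The leukocyte markers summed to 39.2 to 42.6 CPM, 74.7 to 84.3 CPM, 28.4 to 29.5 CPM and 11.5 to 13.5 CPM in the same order of groups, nearly all CD68, and fibroblast and melanocyte markers to at most 16.9 and 27.3 CPM. PTPRC, PECAM1, COL1A2, COL3A1, DCN, MLANA, LYZ and CD3E had at most 3 counts in any library. The part of these differences in the results was not tested.

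Of the 85 members, 80 passed the filter on low counts and were tested. The 5 others were at or near 0 in every group. ATP5MGL, a retrogene copy of subunit g, and COX4I2, the lung isoform of subunit 4, had 1 count each in all 12 libraries together. COX7A1, the muscle isoform of subunit 7A, had 0 to 3 counts in a library. COX6B2, the testis isoform of subunit 6B, had 1 to 7 counts, and NDUFA4L2, a hypoxia-inducible relative of NDUFA4, had 0 to 7 counts.

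The first question the groups address is how the compounds changed M5-treated cells. With either compound the nuclear OXPHOS mRNAs fell together, in all 5 complexes. Against M5 alone, 67 of 80 members fell with lefamulin, 1 rose and 12 were not called. Of all 14207 genes, 34.3% fell and 33.6% rose in that comparison. With retapamulin 72 of 80 members fell, 2 rose and 6 were not called, where 38% of all genes fell and 34.1% rose. The median log2 fold change of the members was -0.34 with lefamulin and -0.46 with retapamulin, beside -0.00 and -0.05 over all genes tested. The compound libraries all lay below all M5 libraries for 68 members with lefamulin and for 72 with retapamulin, where 36% and 38.9% of all genes did so. Most of these falls were under 1.5-fold: 6 of 80 members (7.5%) fell by 1.5-fold or more with lefamulin, where 12.1% of all genes did, and 17 (21.3%) with retapamulin, where 17.7% of all genes did. The share of members with falls of that size was thus below that of all genes with lefamulin, and near it but slightly above with retapamulin. In these bulk samples fewer cells of a kind and less RNA per cell cannot be told apart.

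The 2 comparisons share the M5 libraries, so that a high or low M5 library moves both. ATP5MK rose with lefamulin, and ATP5MK and COX7A2L rose with retapamulin. Not called with lefamulin were ATP5IF1, COX7A2L, NDUFA2, NDUFA11, NDUFC1, NDUFS1, COX6A1, COX6C, COX7A2, NDUFA1, ATP5F1E and UQCRHL. Not called with retapamulin were COX6A1, COX6C, COX7A2, NDUFA1, ATP5F1E and UQCRHL.

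**Figure D1:**
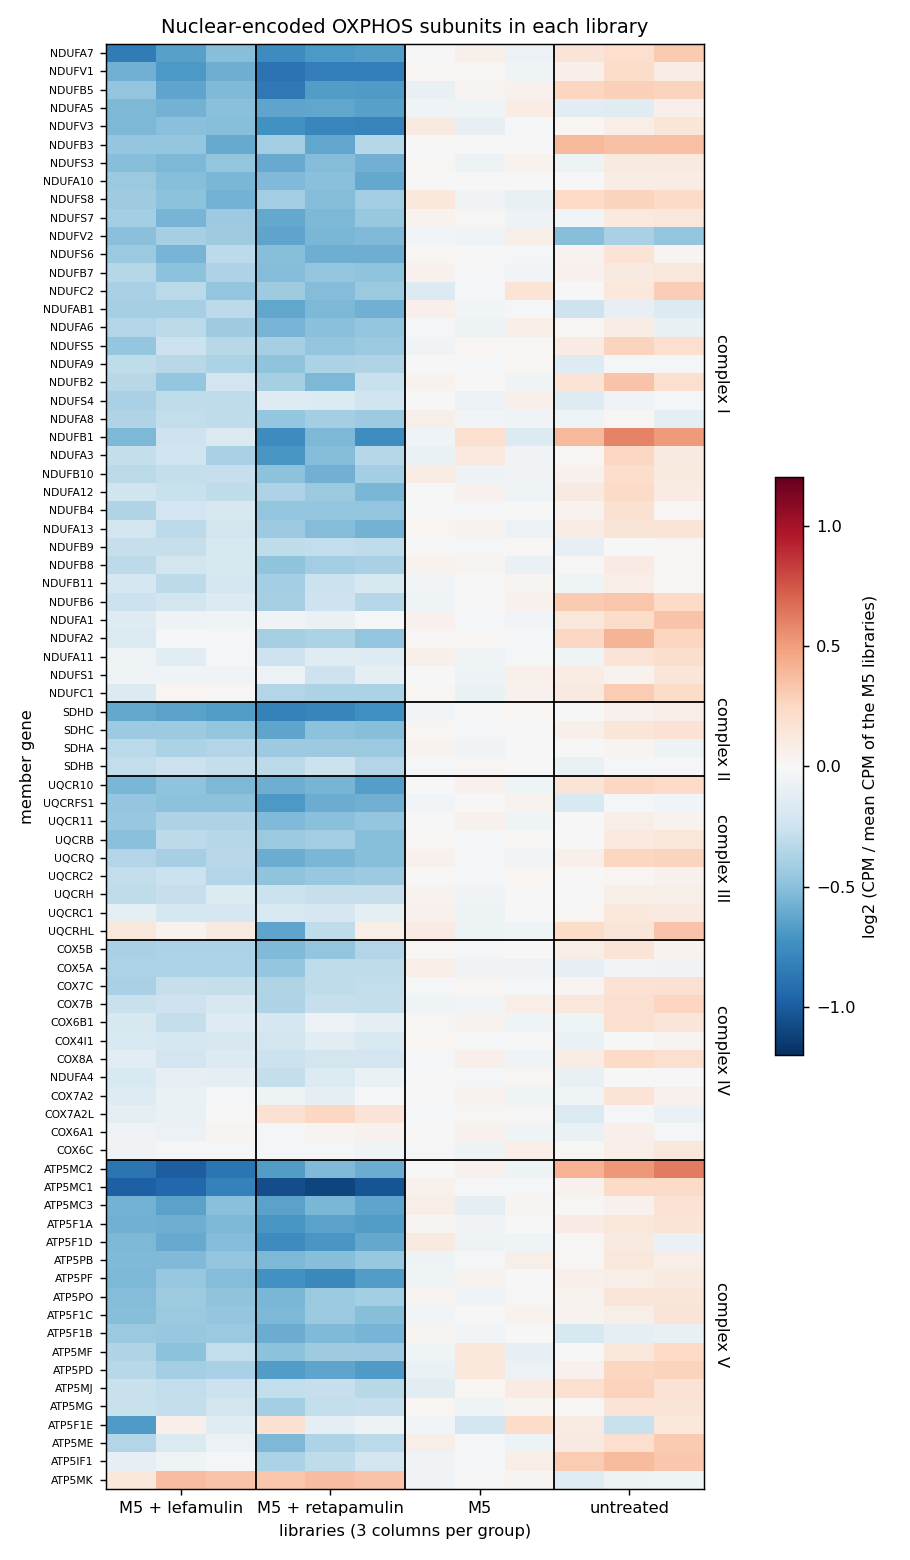
Each line is 1 tested member, grouped by complex and ordered by its lefamulin fold change, and each column is 1 library; the colour gives log2 of the library's CPM over the mean CPM of the M5 libraries, blue below and red above. The 6 compound libraries are blue for most members, and red for ATP5MK at the foot of complex V.

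Summed over all members, the level was 6386, 6412 and 6538 CPM in the lefamulin libraries, 6016, 6213 and 6212 CPM in the retapamulin libraries, 8281, 8139 and 8203 CPM in the M5 libraries and 8151, 8692 and 8666 CPM in the untreated libraries. Every compound library lay below every M5 and every untreated library. The means were 6445 ± 81.0 CPM with lefamulin and 6147 ± 113 CPM with retapamulin, against 8208 ± 71.3 CPM with M5 alone (SD, n = 3 each), which are differences of -21.5% and -25.1%. The exact 2-sided permutation p was 0.1 for both, the smallest that 3 against 3 libraries allow. By complex the summed level with lefamulin and with retapamulin differed from M5 by -21.2% and -27.0% for complex I, by -25.8% and -30.2% for complex II, by -21.0% and -25.7% for complex III, by -11.5% and -10.6% for complex IV and by -26.2% and -30.1% for complex V. Members took 0.627% to 0.637% of all counts in lefamulin libraries, 0.560% to 0.568% in retapamulin libraries, 0.821% to 0.837% in M5 libraries and 0.903% to 0.954% in untreated libraries.

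**Figure D2:**
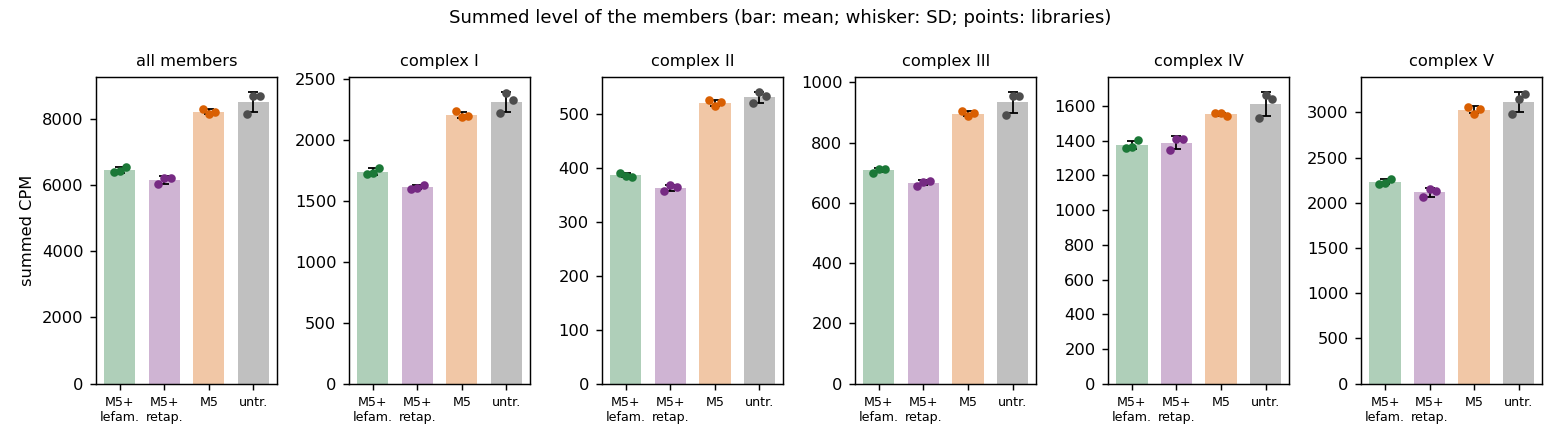
Summed CPM of all members and of each complex (y axis) by group (x axis); bars are means, whiskers SD and points the 3 libraries of a group. Compound libraries sit below M5 libraries in all 6 panels, and the gap is smallest for complex IV, at -11.5% with lefamulin and -10.6% with retapamulin.

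Complex I, which oxidises NADH, consists of a matrix arm (an N module that takes up electrons and a Q module that hands them to ubiquinone) and a membrane arm. Of its 37 members 32 fell with lefamulin and 36 with retapamulin, with median log2 fold changes of -0.34 and -0.47, and every fitted fold change was negative. All 8 Q module genes fell with both compounds, with medians of -0.50 and -0.55. Of 8 N module genes 6 fell with lefamulin and 8 with retapamulin, with medians of -0.38 and -0.51. In the membrane arm 18 and 20 of 21 fell, with medians of -0.31 and -0.46. The 7 core subunits, which are conserved from bacteria and carry the flavin and iron-sulfur centres, had medians of -0.49 and -0.57, beside -0.33 and -0.46 for the 30 supernumerary subunits.

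In the N module, NDUFV1, the flavoprotein whose promoter is shown above, stood at 78.2, 72.3 and 77.8 CPM in lefamulin libraries, 63.1, 65.7 and 65.7 CPM in retapamulin libraries, 119, 118 and 113 CPM in M5 libraries and 122, 135 and 124 CPM in untreated libraries. All compound libraries lay below all M5 libraries, and all retapamulin libraries below all lefamulin libraries. Its log2 fold change against M5 was -0.61 [-0.71, -0.52] with lefamulin (edgeR adjusted p = 8.08e-12) and -0.85 [-0.94, -0.75] with retapamulin (adjusted p = 1.59e-14). NDUFV3, a supernumerary partner of NDUFV1, fell by 0.52 and 0.77 on the log2 scale.

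NDUFV2, an iron-sulfur subunit beside NDUFV1, had another pattern. It stood at 66.1, 71.0 and 69.6 CPM with lefamulin, 60.6, 64.3 and 64.8 CPM with retapamulin, 91.8, 91.0 and 98.5 CPM with M5 alone and 66.0, 71.8 and 67.7 CPM in untreated cells. The M5 libraries were the highest, and the lefamulin libraries overlapped the untreated ones. NDUFV2 was higher with M5 than in untreated cells by 0.45 [0.36, 0.54] (edgeR adjusted p = 4.24e-09), and lower than M5 by -0.45 [-0.54, -0.35] with lefamulin and -0.57 [-0.66, -0.48] with retapamulin. NDUFS1, the largest core subunit of the module, was the core subunit that moved least. Its fold change was -0.05 with lefamulin (adjusted p = 0.369) and -0.14 with retapamulin (adjusted p = 0.00555), and the call with retapamulin was lost without retapamulin replicate 2.

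In the Q module, NDUFA7, a supernumerary subunit, stood at 17.6, 20.1 and 22.1 CPM, 18.7, 19.6 and 19.8 CPM and 31.7, 32.9 and 30.0 CPM in lefamulin, retapamulin and M5 libraries, and at 35.1, 36.2 and 39.2 CPM in untreated libraries. The compound libraries overlapped each other and lay below all M5 libraries, which lay below all untreated libraries. Its fold changes against M5 were -0.66 [-0.80, -0.52] and -0.70 [-0.85, -0.56] (edgeR adjusted p = 7.35e-09 and 2.27e-09). Its exons overlap those of RPS28 in the GENCODE v29 annotation, so its counts are uncertain.

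In the membrane arm, NDUFB5 fell by 0.54 with lefamulin and 0.73 with retapamulin on the log2 scale, and NDUFB3 by 0.51 and 0.46. NDUFB1, a small subunit of low abundance, stood at 8.96, 10.9 and 11.5 CPM with lefamulin, 7.72, 8.94 and 7.72 CPM with retapamulin, 12.5, 14.8 and 11.6 CPM with M5 and 17.0, 19.6 and 18.5 CPM in untreated libraries. The 4 groups did not overlap, retapamulin being the lowest and untreated the highest. The nearest libraries were almost level between lefamulin and M5 (11.5 and 11.6 CPM) and between retapamulin and lefamulin (8.94 and 8.96 CPM). The call with lefamulin (-0.31 [-0.53, -0.09], edgeR adjusted p = 0.0118) was lost without M5 replicate 2 or without lefamulin replicate 1; that with retapamulin was -0.67 [-0.90, -0.45] (adjusted p = 5.13e-06). NDUFA1, an essential small subunit, was the complex I member called with neither compound, at -0.09 [-0.19, 0.01] and -0.05 [-0.15, 0.06].

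Complex II is succinate dehydrogenase, shared with the tricarboxylic acid cycle, and all 4 of its subunits are nuclear. All 4 genes fell with both compounds. SDHA, the flavoprotein that oxidises succinate, averaged 152 ± 2.98 CPM with lefamulin and 143 ± 0.433 CPM with retapamulin, against 194 ± 5.69 CPM with M5 alone (SD, n = 3 each). SDHB, the iron-sulfur subunit, averaged 70.0 ± 1.01 CPM and 68.7 ± 2.05 CPM with the compounds, against 85.0 ± 0.752 CPM with M5. SDHA fell by 0.35 and 0.44, and SDHB by 0.28 and 0.31, on the log2 scale with lefamulin and retapamulin. The membrane anchors SDHC and SDHD fell further in the fitted values. SDHC averaged 75.7 ± 0.956 CPM and 71.0 ± 3.79 CPM, against 103 ± 1.87 CPM with M5, and fell by 0.45 and 0.54.

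SDHD stood at 91.2, 89.9 and 88.1 CPM with lefamulin, 80.0, 80.9 and 83.9 CPM with retapamulin, 137, 140.1 and 143 CPM with M5 alone and 141, 145 and 147 CPM in untreated libraries. The 3 treatments with M5 did not overlap, retapamulin being lowest, while M5 and untreated libraries overlapped. Its fold changes were -0.64 [-0.72, -0.57] and -0.78 [-0.85, -0.70] (edgeR adjusted p = 7.69e-14 and 1.41e-15). SDHD shares exon sequence in GENCODE v29 with TIMM8B on the opposite strand and with AP002884.3 on the same strand. The labels do not say whether the counting used strand.

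Complex III passes electrons from ubiquinol to cytochrome c. Of its 9 members 8 fell with each compound, with medians of -0.36 and -0.46. UQCRFS1, the Rieske iron-sulfur protein, stood at 106, 104 and 105 CPM with lefamulin, 91.2, 97.3 and 98.7 CPM with retapamulin, 144, 146 and 151 CPM with M5 alone and 129.7, 145 and 144 CPM in untreated libraries. Every compound library was below every other library. It fell with lefamulin by 0.48 and with retapamulin by 0.62 on the log2 scale (edgeR adjusted p = 3.7e-10 and 3.3e-12). UQCR10 had 45.9, 48.2 and 46.3 CPM and 44.6, 45.7 and 42.5 CPM with lefamulin and retapamulin, against 67.0, 69.6 and 64.8 CPM with M5. Its compound libraries lay below the M5 ones, with fold changes of -0.52 [-0.61, -0.43] and -0.60 [-0.69, -0.51].

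Within complex III the core proteins did not move by the same amount: UQCRC2 fell by 0.30 and 0.46 with lefamulin and retapamulin, and UQCRC1 by 0.18 and 0.17. The fall of UQCRQ, a small subunit, was 0.36 with lefamulin and 0.55 with retapamulin. UQCRHL, a near-identical copy of the hinge protein gene UQCRH, was not called, at 0.10 (adjusted p = 0.63) and -0.26 (adjusted p = 0.178). Counts of this pair are uncertain, since reads could be split between the copies.

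Complex IV, cytochrome c oxidase, reduces oxygen, and its catalytic core is encoded in mitochondrial DNA. Of its 12 tested nuclear genes 8 fell with each compound, with medians of -0.19 and -0.18. Over the members of the other 4 complexes together the medians were -0.37 and -0.48; the difference between complexes was not tested. The genes of this complex that fell most were COX5B and COX5A. COX5B, a zinc-binding subunit, stood at 77.7, 78.2 and 78.4 CPM with lefamulin, 70.5, 73.4 and 80.1 CPM with retapamulin, 104, 100.3 and 102 CPM with M5 alone and 107, 114 and 105 CPM in untreated libraries. The compound libraries lay below all others, with fold changes against M5 of -0.38 [-0.48, -0.29] and -0.45 [-0.54, -0.36] (edgeR adjusted p = 3.08e-08 and 1.84e-09). COX5A fell by 0.37 and 0.36 on the log2 scale.

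COX6A1, the isoform of subunit 6A found outside muscle, had overlapping libraries in all groups, at 206, 202 and 218 CPM with lefamulin, 209.6, 218 and 221 CPM with retapamulin, 212, 221 and 205 CPM with M5 alone and 201, 222 and 209 CPM in untreated cells. The fold changes were -0.03 [-0.11, 0.05] and 0.02 [-0.06, 0.11], intervals that leave out the median fall of the members. On library totals in place of TMM scaling, the second was -0.11 and was called. COX6C and COX7A2, other small subunits, were not called either, at -0.02 [-0.11, 0.06] and -0.09 [-0.19, 0.02] with lefamulin and -0.02 [-0.11, 0.06] and -0.07 [-0.17, 0.04] with retapamulin.

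COX7A2L, also called SCAF1, joins complexes III and IV in supercomplexes. It stood at 67.7, 69.6 and 73.7 CPM with lefamulin, 83.4, 87.5 and 81.9 CPM with retapamulin, 72.3, 74.2 and 74.2 CPM with M5 alone and 65.0, 72.4 and 69.7 CPM in untreated libraries. The retapamulin libraries lay above all others. Its fold change against M5 was 0.20 [0.10, 0.29] with retapamulin (edgeR adjusted p = 0.000369) and -0.06 [-0.16, 0.03] with lefamulin (adjusted p = 0.203). The rise with retapamulin was not called on library totals or on FPKM, where it was at its lowest 0.06.

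**Figure D3:**
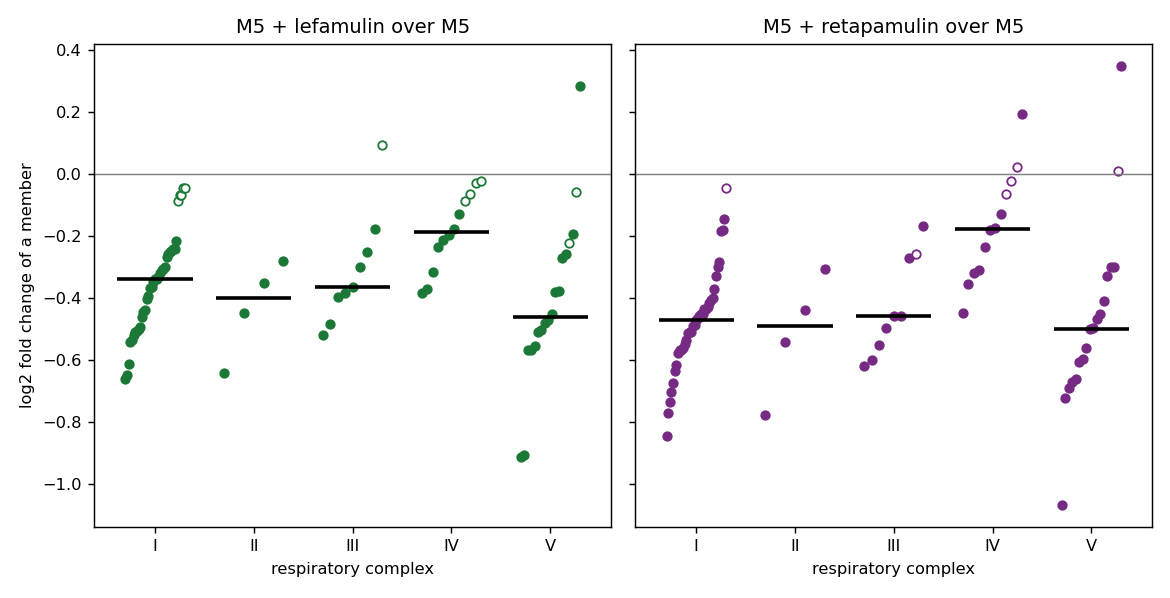
Log2 fold change of each tested member (y axis) by complex (x axis), lefamulin over M5 on the left and retapamulin over M5 on the right; filled points were called, open points were not, and black bars are medians. The medians of complex IV, -0.19 and -0.18, lie nearest to 0, and the highest points of complex V are ATP5MK at 0.29 and 0.35.

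Complex V couples a rotating ring of c subunits in the membrane to the catalytic F1 head. Of its 18 tested members 15 fell with lefamulin and 16 with retapamulin, with medians of -0.46 and -0.50. Subunit c is encoded by 3 genes whose mature proteins are identical, and all 3 fell with both compounds. ATP5MC1 stood at 24.4, 25.1 and 27.4 CPM with lefamulin, 23.1, 22.3 and 23.4 CPM with retapamulin, 49.7, 47.3 and 47.2 CPM with M5 alone and 49.9, 56.3 and 56.4 CPM in untreated libraries. Both compounds took it below all M5 libraries, and retapamulin below all lefamulin libraries. The fold changes, -0.91 [-1.02, -0.79] and -1.07 [-1.18, -0.95] (edgeR adjusted p = 4e-13 and 1.69e-14), were with retapamulin the most negative of all members.

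ATP5MC2 was the lowest with lefamulin and not with retapamulin. It stood at 44.2, 40.9 and 44.2 CPM with lefamulin, 51.1, 56.3 and 53.6 CPM with retapamulin, 81.6, 84.0 and 77.9 CPM with M5 alone and 108, 117 and 125 CPM in untreated libraries. The 4 groups did not overlap, and untreated cells were the highest. Its fold changes against M5 were -0.91 [-1.02, -0.80] with lefamulin and -0.60 [-0.70, -0.49] with retapamulin (edgeR adjusted p = 9.66e-14 and 1.76e-10), and M5 alone differed from untreated by -0.52 [-0.62, -0.42] (adjusted p = 2.03e-09). ATP5MC3 fell by 0.57 and 0.61 with lefamulin and retapamulin. Summed over the 3 genes, subunit c mRNA was 154, 148 and 161 CPM with lefamulin and 156, 165 and 159 CPM with retapamulin, against 264, 249 and 255 CPM with M5 and 286, 305 and 325 CPM in untreated cells. The sums of the compounds overlapped each other, although ATP5MC2 was lower with lefamulin and ATP5MC1 higher with it by 0.16 [0.04, 0.28]. The ATP5MC1 call between the compounds was made under 9 of 16 alternatives; it was lost with RLE size factors, with DESeq2, and without any 1 of 5 of the 6 libraries compared.

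The F1 head genes fell in 4 of 5 cases with each compound. ATP5F1B, the catalytic β subunit, stood at 820.1, 813 and 817 CPM with lefamulin, 737, 775 and 759 CPM with retapamulin, 1144, 1092 and 1111 CPM with M5 alone and 977, 1030.1 and 1047 CPM in untreated libraries. The M5 libraries were the highest and the retapamulin libraries the lowest, with no overlap between the 4 groups. The fold changes against M5 were -0.45 [-0.51, -0.39] and -0.56 [-0.62, -0.50] (edgeR adjusted p = 2.24e-12 and 2.46e-14). ATP5F1A, the α subunit, fell by 0.57 and 0.67, ATP5F1C, the γ subunit, by 0.47 and 0.50, and ATP5F1D, the δ subunit, by 0.56 and 0.69. ATP5F1E, the ε subunit, had only 2.05 to 3.81 CPM in any library and was not called; its exons overlap those of TUBB1 on the other strand. All 4 peripheral stalk genes (ATP5PB, ATP5PD, ATP5PF and ATP5PO) fell, with medians of -0.49 and -0.58.

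ATP5MK, also known as DAPIT, a small subunit of the membrane part of the ATP synthase, was the member that rose with both compounds. It stood at 124, 146 and 143 CPM with lefamulin, 142, 146 and 143 CPM with retapamulin, 109.6, 113 and 116 CPM with M5 alone and 102, 108 and 109 CPM in untreated libraries. All compound libraries lay above all M5 and untreated libraries. The rise was 0.29 [0.19, 0.38] with lefamulin and 0.35 [0.25, 0.45] with retapamulin (edgeR adjusted p = 1.1e-05 and 5e-07), and it was called under all 16 alternative settings in both comparisons. Its exons overlap those of TAF5 on the other strand, so its counts are uncertain.

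ATP5IF1, which blocks the enzyme from hydrolysing ATP when respiration fails, stood at 49.4, 51.1 and 52.3 CPM with lefamulin, 40.7, 42.8 and 45.6 CPM with retapamulin, 51.4, 52.0 and 55.5 CPM with M5 alone and 65.3, 69.1 and 66.1 CPM in untreated libraries. Lefamulin and M5 libraries overlapped; retapamulin libraries lay below both and untreated libraries above. It differed from M5 by -0.06 [-0.16, 0.04] with lefamulin (edgeR adjusted p = 0.292) and by -0.30 [-0.40, -0.20] with retapamulin (adjusted p = 5.51e-06).

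**Figure D4:**
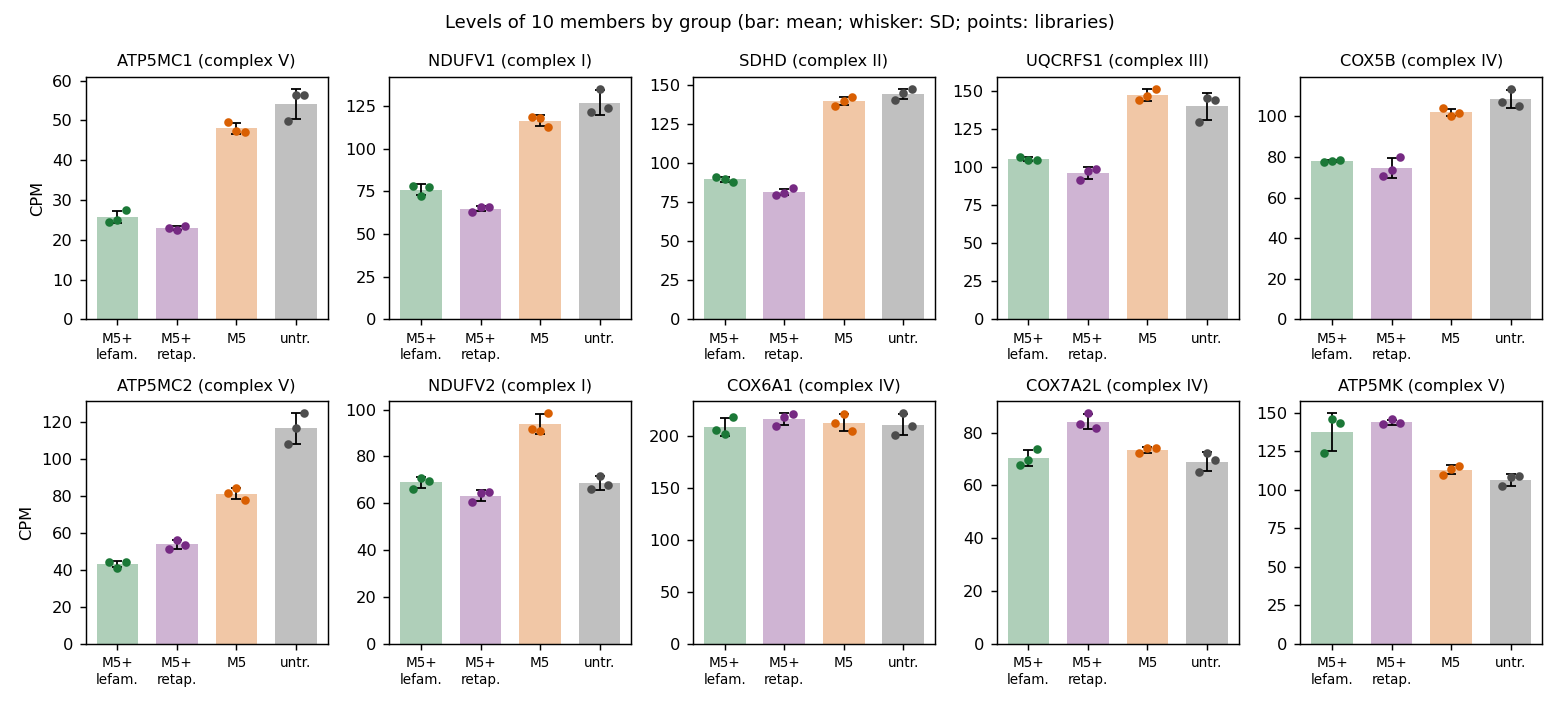
CPM (y axis, from 0) of 10 members described in the text by group (x axis); bars are means, whiskers SD and points the 3 libraries of a group. The compound groups are lower than M5 in ATP5MC1, NDUFV1, SDHD, UQCRFS1, COX5B, ATP5MC2 and NDUFV2, overlap it in COX6A1, and are higher in ATP5MK.

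The second question is what M5 alone did. Against untreated cells 31 of 80 members were lower with M5, 3 were higher and 46 were not called; of all genes 26.9% were lower and 28.3% higher. The median log2 fold change was -0.09, beside -0.02 over all genes. The summed level of the members averaged 8208 ± 71.3 CPM with M5 and 8503 ± 305 CPM in untreated cells (SD, n = 3 each), a difference of -3.47% with overlapping libraries (exact permutation p = 0.3). By complex 15 of 37 complex I genes were lower, 1 of 4 of complex II, 2 of 9 of complex III, 3 of 12 of complex IV and 10 of 18 of complex V. The largest falls were those of ATP5MC2, given above, and NDUFB1, at -0.50 [-0.71, -0.29] (edgeR adjusted p = 0.000159). NDUFV2, NDUFAB1, the mitochondrial acyl carrier protein, and ATP5F1B were higher, at 0.45, 0.17 and 0.13. The calls of NDUFAB1 and ATP5F1B were lost on library totals, and ATP5F1B stood at -0.04 after cyclic loess scaling.

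These counts rest on the scaling. On library totals 64 members were lower with M5 than in untreated cells and 1, NDUFV2, was higher; the median of all genes was then -0.14 and that of the members -0.21. Relative to all genes the members stood at -0.07 with either scaling, and at -0.16 after cyclic loess. Among all called genes the share that were higher was 51.3% with TMM and 31.5% on library totals. Of the 34 calls, 22 were made under all 16 alternatives. Without 1 library at a time, between 24 and 39 members were lower.

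Against untreated cells 73 of 80 members were lower with lefamulin (37.1% of all genes) and 1 was higher (36.9% of all genes), with a median of -0.43. With retapamulin 75 were lower (40.9% of all genes) and 2 were higher (37.6% of all genes), with a median of -0.57. On library totals the medians of all genes shifted to -0.05 for lefamulin and -0.19 for retapamulin against M5, and to -0.18 and -0.31 against untreated cells. The share of higher genes among the called was then 37.4% in place of 47.3% for retapamulin against M5, and 38.6% and 33.7% in place of 49.9% and 47.8% for lefamulin and retapamulin against untreated cells.

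Lefamulin and retapamulin were compared with each other as 1 pair, at doses that are not known. Of 80 members 51 were not called, 26 were higher with lefamulin (18.8% of all genes were) and 3 were lower with it (21.2% of all genes). Most of all genes tested were not called either. The median log2 fold change, lefamulin over retapamulin, was 0.08, beside 0.01 over all genes, and 0 of 80 members differed by 1.5-fold or more, where 7.03% of all genes did. The summed level was 4.85% higher with lefamulin (exact permutation p = 0.1, the smallest possible), while for complex IV it differed by -0.913% (exact permutation p = 0.8). In complex I, 14 members were higher with lefamulin and 1 was lower, and of the 8 N module genes 5 were higher and 1 was lower. On library totals 57 members were higher with lefamulin, with RLE size factors 18, and the share of higher genes among all called moved to 72.8% and 36.8%, from 47.0% with TMM. A p above the threshold does not show that the compounds act alike.

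The largest difference in favour of lefamulin was that of NDUFB1, 0.37 [0.14, 0.59] (edgeR adjusted p = 0.0104); it was not called without lefamulin replicate 3 or after cyclic loess. NDUFA2, an N module subunit with a thioredoxin fold, stood at 22.6, 25.2 and 25.4 CPM with lefamulin and 19.4, 19.6 and 18.5 CPM with retapamulin, without overlap, a difference of 0.35 [0.21, 0.48] (adjusted p = 0.000124). NDUFC1 differed by 0.33, ATP5PD by 0.28, ATP5IF1 by 0.24 and NDUFV1 by 0.23. The members lower with lefamulin were ATP5MC2, at -0.32 [-0.43, -0.20] (adjusted p = 5.1e-05), COX7A2L, at -0.26 [-0.35, -0.17] (adjusted p = 5.24e-05), and NDUFS4, at -0.15 [-0.27, -0.03] (adjusted p = 0.0424). The calls of ATP5MC2, COX7A2L, NDUFA2, NDUFC1 and ATP5IF1 were made under all 16 alternatives, and that of NDUFS4 under 4. Of members not called, NDUFA7 differed by 0.04 [-0.11, 0.19], COX6A1 by -0.05 [-0.13, 0.03] and ATP5MK by -0.06 [-0.16, 0.03].

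**Figure D5:**
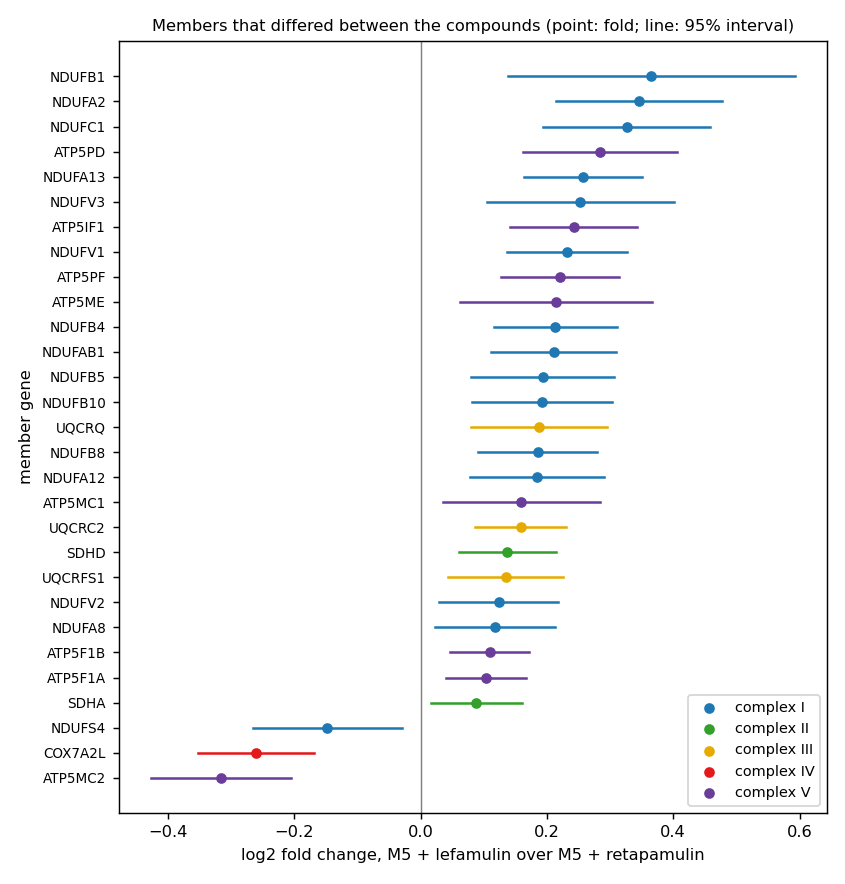
Log2 fold change, lefamulin over retapamulin (x axis), of the 29 members called in that comparison, coloured by complex; points are fitted values and lines 95% intervals. The 3 members left of 0 are ATP5MC2, COX7A2L and NDUFS4, and NDUFB1 lies farthest right at 0.37.

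Levels of different genes were compared as FPKM, which scale counts by gene length and library size. The median over the 80 tested members was 47.4 FPKM with lefamulin, 40.0 FPKM with retapamulin, 64.6 FPKM with M5 and 69.7 FPKM in untreated cells. ATP5F1B had the highest level in every group, 454 ± 2.72, 396 ± 6.70, 641 ± 14.1 and 635 ± 17.1 FPKM (SD, n = 3 each, same order of groups), and ATP5F1E the lowest, 0.761 to 0.993 FPKM. The isoforms were uneven in every group. COX4I1 averaged 197, 188, 233 and 251 FPKM and COX6B1 135, 135, 162 and 188 FPKM in lefamulin, retapamulin, M5 and untreated cells, while COX4I2 was at most 0.00994 FPKM and COX6B2 0.0313 to 0.0743 FPKM. NDUFA4, a complex IV subunit first placed in complex I, averaged 46.7 to 61.4 FPKM, against 0.066 to 0.117 FPKM for NDUFA4L2. COX7A2 averaged 49.4 to 64.2 FPKM and COX7A1 at most 0.0793 FPKM. COX8A, the COX8 isoform found in most tissues, averaged 285, 258, 334 and 408 FPKM in the same order of groups. Among the subunit c genes ATP5MC1 was the highest per length, at 38.8 FPKM with lefamulin and 32.7 FPKM with retapamulin, against 75.2 FPKM with M5 and 92.0 FPKM in untreated cells.

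Other genes of the pathway were counted by list, and their values here are log2 fold changes against M5, lefamulin first and retapamulin second. Beside them, 34.3% and 38% of all genes tested fell and 33.6% and 34.1% rose, with medians of -0.00 and -0.05. Of 16 complex I assembly factors 13 and 15 fell and 0 rose with either, with medians of -0.34 and -0.50; NDUFAF4 stood at -0.85 and -0.89 and NDUFAF8 at -0.78 and -1.05. Of 15 assembly factors of complexes II, III and V, 9 and 11 fell and 2 and 1 rose, with medians of -0.22 and -0.41. Among them LYRM7, which helps to mature the Rieske protein, stood at -1.04 and -1.24. It was not the lowest of the 15, whose lowest values were -1.24 with lefamulin and -1.95 with retapamulin. Of 23 complex IV assembly factors 13 and 14 fell and 3 and 4 rose, with medians of -0.36 and -0.36. The copper chaperone SCO1 stood at -0.94 and -0.97, and COX20, which helps to insert a mitochondrially encoded subunit, rose by 0.19 and 0.41. Of 16 genes of mobile carriers and coenzyme Q synthesis 11 and 13 fell and 1 and 0 rose, with medians of -0.40 and -0.63. PDSS1, which makes the side chain of coenzyme Q, stood at -1.22 and -1.19, and CYC1 at -0.79 and -0.92. Of 17 tricarboxylic acid cycle genes 13 fell with each compound and 3 and 2 rose, with medians of -0.38 and -0.44; fumarase (FH) stood at -0.95 and -0.88, and DLAT, a pyruvate dehydrogenase subunit, rose by 0.77 and 0.55.

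Of 13 mitochondrially encoded mRNAs, 5 rose (38.5%) and 3 fell (23.1%) with lefamulin, and 5 rose (38.5%) and 4 fell (30.8%) with retapamulin, beside 33.6% and 34.3% of all genes with lefamulin and 34.1% and 38% with retapamulin, with medians of -0.05 and 0.08; ND3 stood at 1.05 and 1.01 and ND5 at -0.43 and -0.40. Mitochondrial mRNAs took 4.05% ± 0.18 and 3.83% ± 0.18 of all counts with lefamulin and retapamulin, against 3.90% ± 0.24 with M5 and 4.32% ± 0.27 in untreated cells (SD, n = 3 each), with overlapping libraries between each compound and M5. Their counts were 6.42 ± 0.23 times those of the members with lefamulin and 6.76 ± 0.27 times with retapamulin, against 4.71 ± 0.31 times with M5 and 4.63 ± 0.17 times in untreated cells. Both compounds lay above all M5 libraries in this ratio, which does not depend on the scaling (exact permutation p = 0.1, the smallest possible).

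Of 13 tested regulators of mitochondrial gene expression 9 fell (69.2%) with each compound against M5, and 1 (7.69%) and 2 (15.4%) rose. The medians were -0.25 and -0.17. Of all genes tested, 34.3% and 38% fell and 33.6% and 34.1% rose. The highest values among the 13 regulators were 0.13 with lefamulin and 0.15 with retapamulin. PPARGC1B, a coactivator of mitochondrial biogenesis, averaged 4.42 ± 0.58 CPM with lefamulin and 4.11 ± 0.19 CPM with retapamulin, against 15.0 ± 1.2 CPM with M5 (SD, n = 3 each), a log2 fold change of -1.76 and -1.86. HIF1A, the oxygen-regulated factor, stood at -0.72 and -0.88. The factors whose motifs were searched above are named for that reason. NRF1 stood at -0.22 (edgeR adjusted p = 0.0066) with lefamulin and at -0.09 (edgeR adjusted p = 0.207) with retapamulin. GABPA stood at -0.18 and -0.15 (edgeR adjusted p = 0.0071 and 0.024), and YY1 at -0.25 and -0.17 (edgeR adjusted p = 1.8e-06 and 0.00024). With M5 alone, 7 of the 13 regulators (53.8%) were higher than in untreated cells and 1 (7.69%) was lower, with a median of 0.16. Of all genes 28.3% and 26.9% were. Against untreated cells 4 (30.8%) were higher and 8 (61.5%) lower with lefamulin, and 3 (23.1%) and 6 (46.2%) with retapamulin. The shares of all genes were 36.9% and 37.1% with lefamulin, and 37.6% and 40.9% with retapamulin.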

How the data were processed

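RNA of HaCaT cells was sequenced in 12 libraries, 3 in each of 4 groups taken from the treatment label; the batch label is the same for all. The labels' extraction text speaks of mouse tissue and was not used. HISAT2 and HTSeq are named in the submitters' processing notes, with no version; the genome build and the use of strand are not stated there. The authors deposited whole-number counts per gene symbol, with no normalization, and a table of FPKM. In each of the 20422 genes counted in 2 or more libraries, of 22545, the gene length implied by the deposited FPKM, the count and the library total varied over libraries by a coefficient of variation under 0.001.

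The tests used edgeR 4.0.16 in R 4.3.3. Its filterByExpr, run by group, left 14207 genes tested and 8338 not. After TMM scaling all 12 libraries entered a single quasi-likelihood fit with a mean for each group. P-values of the 6 comparisons were adjusted by Benjamini-Hochberg over the genes tested. Libraries held 35110519 to 37520999 counts; the common biological coefficient of variation was 0.0449, and replicates of every group differed beyond sampling noise. Sums over members were compared by exact permutation. The pipeline was tested on simulated counts in which few genes changed, evenly in both directions and in a single group. Far more genes were called in these data, so that run does not test the choice of scaling.

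The alternatives tried were DESeq2 1.42.0, RLE size factors, unscaled library totals, no filter, fits of 2 groups, a replicate block, limma 3.58.1 on log2 FPKM with pseudocounts of 1 and 0.1, cyclic loess, and leaving out each library. Full values are given for the called members with the largest changes in each complex, the SDH genes, isoform pairs and ATP5IF1. Members and lists were chosen with earlier results of these data known, so their counts are a description. In GENCODE v29, 25 members overlap an exon of another gene on the same strand and 34 on the other, and their counts are uncertain. Those overlapping on the same strand include ATP5MC2, ATP5MK, COX6A1, NDUFA7, NDUFV1, NDUFV2 and SDHD. Values of 1 member by name are not reported here; it is counted with the rest.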

Additional observations from a re-analysis of the deposited data

How the results depend on the processing

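All members called against M5 kept their direction under the 16 alternatives: with lefamulin 65 of 68 calls were made under all of them, with retapamulin 71 of 74. ATP5ME, NDUFA4 and NDUFB1 lost their call with lefamulin without 1 library, ATP5ME also after cyclic loess; COX6B1, COX7A2L and NDUFS1 lost theirs with retapamulin. Between M5 and untreated cells 22 of 34 calls held throughout, and between the compounds 16 of 29. Counting error limits low members such as ATP5F1E and NDUFB1. Libraries with the same replicate number were weakly correlated once group means were removed (correlations from -0.14 to 0.18). That does not show whether they were made in parallel. With a replicate block 67 and 72 members fell against M5 and 31 fell with M5. In that fit 24 were higher and 2 lower with lefamulin than with retapamulin.

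Lower members with M5 than in untreated cells numbered 64 on library totals, 65 on log2 FPKM with either pseudocount, 60 there without the filter and 57 after cyclic loess. Of all 14207 genes, 5823 were lower on library totals, 5771 and 5668 on log2 FPKM with pseudocounts of 1 and 0.1, and 3910 after cyclic loess. On log2 FPKM without the filter 5895 of 22545 genes were lower. Higher members numbered 1 on library totals and log2 FPKM and 5 without the filter. Of all genes, 2675 of 14207 were higher on library totals and 4318 of 22545 without the filter. Higher members with lefamulin than with retapamulin numbered 57 on library totals, 56 on log2 FPKM, 52 there without the filter and 40 after cyclic loess. Of all 14207 genes, 4436 were higher on library totals, 4171 and 4289 on log2 FPKM with pseudocounts of 1 and 0.1, and 2595 after cyclic loess. On log2 FPKM without the filter 3816 of 22545 genes were higher. Higher members with retapamulin numbered 1 on library totals and log2 FPKM, against M5 and against untreated cells. On library totals 3942 and 3891 of all 14207 genes were higher in these comparisons.

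The median of the members on library totals, on log2 FPKM with pseudocounts of 1 and 0.1 and, where it moved, after cyclic loess was -0.39, -0.37 and -0.39 for lefamulin against M5, -0.59, -0.58, -0.59 and -0.49 for retapamulin against M5 (-0.42 with RLE or DESeq2), -0.21, -0.20, -0.21 and -0.18 for M5 against untreated, 0.17, 0.16, 0.17 and 0.12 for lefamulin against retapamulin (0.043 with RLE or DESeq2), -0.59, -0.57, -0.59 and -0.49 for lefamulin against untreated, and -0.83, -0.78, -0.82 and -0.66 for retapamulin against untreated. Without the filter the FPKM medians were as with a pseudocount of 1. The log2 ratio of summed levels, -0.35, -0.42, -0.05, 0.07, -0.40 and -0.47 in that order of comparisons, became -0.40, -0.55, -0.17, 0.16, -0.56 and -0.72 on library totals; summed FPKM gave -0.50, -0.19, 0.15, -0.54 and -0.69 for the last 5.

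Leaving out 1 library gave 64 to 67 lower members with lefamulin and 71 to 72 with retapamulin against M5 (higher 1 to 1 and 2 to 2), 24 to 39 lower and 3 to 5 higher with M5, 20 to 26 higher and 2 to 3 lower between the compounds, and 71 to 74 and 70 to 76 lower against untreated cells. The medians ranged from -0.35 to -0.34, -0.47 to -0.45, -0.12 to -0.07, 0.07 to 0.09, -0.46 to -0.40 and -0.61 to -0.55, and the summed ratios from -0.36 to -0.34, -0.42 to -0.40, -0.08 to -0.03, 0.05 to 0.08, -0.43 to -0.38 and -0.50 to -0.45.

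Some genes turned sign. Of these, ATP5F1B was called higher with M5 than in untreated cells in the main fit, at 0.13. The others were near 0 there and not called. All but ATP5F1B were called lower (adjusted p under 0.05) under alternatives named here. On library totals, log2 FPKM and cyclic loess, M5 against untreated gave -0.10, -0.10 and -0.13 for COX4I1, -0.11, -0.10 and -0.13 for COX6A1 and -0.11, -0.10 and -0.12 for SDHA (-0.11 with a pseudocount of 0.1). SDHB stood at -0.078 and -0.079 on log2 FPKM and ATP5F1B at -0.042 after cyclic loess. COX6A1 with retapamulin stood at -0.11 against M5 on library totals and log2 FPKM, and at -0.22 against untreated (-0.21 after cyclic loess). With lefamulin against untreated, COX7A2L stood at -0.14 on library totals and -0.13 and -0.14 on log2 FPKM, and NDUFV2 at -0.16, -0.15 and -0.16. On library totals the medians of all genes moved from -0.02 to -0.14 for M5 against untreated. For retapamulin against untreated they moved from -0.06 to -0.31. The cause of the turns was not tested.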
